A study of Mus musculus with 2 samples.

Results

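The genes described are Gad1, Gad2, Erbb4, Nxph1 and Adarb2, which mark GABAergic interneurons, and the measurement is the methylation of cytosines across each of them in the dentate gyrus. Each gene was represented by 1 fixed window of the mouse mm9 genome, placed by the gene's position. The genes and windows were chosen with earlier results of these data known. The windows lay on chromosome 2 from 70390000 to 70441000 (Gad1) and from 22477000 to 22550000 (Gad2), on chromosome 1 from 68090000 to 69160000 (Erbb4), on chromosome 6 from 8898000 to 9200000 (Nxph1) and on chromosome 13 from 8200000 to 8770000 (Adarb2). Together they held 31796 listed cytosines of at most 100 reads, out of 27285848 such cytosines on the 19 autosomes and 27435342 listed cytosines in all. The DNA came from dentate gyri micro-dissected on both sides from wild-type male C57Black6 mice of 8 to 10 weeks, and was read by whole-genome bisulfite sequencing. The series has 1 group of 2 libraries, with no treatment or second genotype. Replicate 2 carries all comparisons here, because replicate 1 listed only 98 cytosines in the 5 windows.

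GABAergic interneurons are the inhibitory neurons of the hippocampus, and in the dentate gyrus they are a minority beside the glutamatergic granule neurons. Gad1 and Gad2 encode the 2 glutamate decarboxylases that make GABA from glutamate. Erbb4 encodes a receptor tyrosine kinase for neuregulins, Nxph1 a secreted glycoprotein that binds neurexins, and Adarb2 a brain member of the RNA-editing deaminase family that has no known editing activity itself. Mammalian methylation lies mostly at CpG, where active promoters and CpG islands are usually left unmethylated. Mature neurons also methylate cytosines outside CpG (CpH, split into CHG and CHH, H being any base but G), through Dnmt3a and mainly at CA. CpH methylation in the body of a gene is known to be lower in neuron types that transcribe the gene. Levels here are averages over all cells of the tissue, so a low level in every cell and a high level in a few cells cannot be told apart. Bisulfite reads do not separate methylcytosine from hydroxymethylcytosine.

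Levels are the percent of reads that were methylated, with exact 95% intervals that cover counting error only. Listed cytosines lay on 1 strand. Median depth per site in the windows was 22 to 24 reads for CpG and CHG and 32 to 34.5 reads for CHH, and the deepest site had 60 reads. Adarb2, Gad1, Gad2 and Nxph1 are transcribed from left to right in RefSeq (GRCm38.p6) and Erbb4 from right to left, so the listed strand is the template strand of Erbb4 and the coding strand of the others. RefSeq gives gene lengths of 40.7 kb for Gad1, 72.9 kb for Gad2, 1077 kb for Erbb4, 301 kb for Nxph1 and 566 kb for Adarb2. The windows span 51.0, 73.0, 1070.0, 302 and 570.0 kb, so that of Erbb4 is shorter than its gene and those of the others are longer. DNA reads hold no expression values, so the labelled tissue was not checked against marker expression.

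Each window held unmethylated CpG near the edge from which its gene is transcribed. Runs of at least 5 consecutive listed CpG sites of at most 20% were found in every one of the 5 windows, and each lay near that edge, the farthest ending 12.95 kb from it. Except in Adarb2 the start site itself was not placed, so the position is relative to the window and not to the start of transcription. Allowing runs of 3 sites added 1 run in Erbb4 at 958 kb from its left edge, 1 in Nxph1 at 3.37 kb and 2 in Adarb2 at 146.6 and 267.5 kb, so the runs of Erbb4 and Adarb2 were then no longer all near that edge. There were 7 runs with 57 CpG sites in all, and 39 of their 1353 reads were methylated, a level of 2.88% (2.06% to 3.92%). For comparison, 18.0% of autosomal 100 kb bins touched such a run. The windows of Gad1 and Gad2 are shorter than such a bin, and those of Erbb4, Nxph1 and Adarb2 span several. Gad1 had 3 runs, at 70396383 to 70397361, 70398860 to 70399142 and 70402005 to 70402950, with levels of 1.83%, 6.09% and 4.43%. They lay between 6.38 and 12.9 kb from the window's edge and were 979, 283 and 946 bp long, with sites of 21.7% to 56.5% between the first and the second. Gad2 had 1 run of 7 sites at 22479193 to 22479990, at 4.46%. In Erbb4 the run lay at 69151536 to 69155160, from 4.84 to 8.46 kb inside the right edge, on the side where this leftward gene begins. It was the longest single run, at 3625 bp, and held 15 CpG sites at 0.563% (0.0683% to 2.02%). In Nxph1 5 sites at 8906124 to 8906281 were at 3.20%, and in Adarb2 8 sites at 8202073 to 8203380 were at 1.45%. CpH methylation in the runs was also low. Of 1648 CHG reads 2 were methylated, a level of 0.121% (0.0147% to 0.438%), and of 640 CHH reads 1 was.

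The start of Adarb2 could be placed by sequence. The 300-base RefSeq promoter of Adarb2 (GRCm38.p6, 250 bases before the start site and 50 after) was slid along its window, and at 1 offset all 16 listed cytosines matched a cytosine of the same context. No other offset in the window matched more than 12, and no other offset at which all listed cytosines matched had more than 4 of them. The sequence is shown because it is the one member promoter whose single cytosines could be read. Capitals mark the 4 CpG dinucleotides with a listed cytosine, and the stretch is chr13:8201861-8202160 in mm9 positions, plus strand, 5′ to 3′.
Adarb2 promoter: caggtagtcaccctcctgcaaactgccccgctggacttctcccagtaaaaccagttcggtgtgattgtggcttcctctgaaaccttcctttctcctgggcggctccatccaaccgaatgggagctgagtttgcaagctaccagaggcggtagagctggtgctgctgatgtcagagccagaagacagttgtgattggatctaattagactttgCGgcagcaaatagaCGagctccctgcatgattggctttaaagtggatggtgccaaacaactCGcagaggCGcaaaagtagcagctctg
The 16 cytosines ran from base 213 to base 298 of this sequence and had 25 to 34 reads each. None had a methylated read. For the 4 CpG sites this was 0 of 117 reads, which allows a level of up to 3.10%. For the 5 CHG sites it was 0 of 155 reads (up to 2.35%), and for the 7 CHH sites 0 of 226 reads (up to 1.62%). The 4 CpG sites open the unmethylated run of Adarb2, which goes on beyond the promoter sequence. The promoters of the other 4 genes could not be placed this way. They hold 21 (Gad1), 14 (Gad2), 17 (Erbb4) and 21 (Nxph1) CpG dinucleotides in 300 bases, against 9 in that of Adarb2.

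Over whole windows, CpG methylation was low in the genes that make GABA and close to the genome's level in the other members. Gad1 was at 55.1% (52.8% to 57.3%, 83 sites) against 78.4% in the 500 kb on either side, and Gad2 at 66.1% (63.6% to 68.5%, 63 sites) against 77.1%. The 50 kb directly to the left of the Gad2 window was lower still, at 56.0% (54.0% to 58.0%, 85 sites). Low CpG methylation at Gad2 was thus not confined to the window. Among 23484 autosomal bins of 100 kb, with a median of 80.2%, 0.571% had a lower level than Gad1 and 3.61% a lower level than Gad2. Erbb4 was at 82.5% against 82.7%, Nxph1 at 78.4% against 79.9% and Adarb2 at 77.6% against 79.1%. These windows are longer, so a low stretch near 1 edge counts for less in them. In the first 50 kb, Nxph1 was at 64.9% (78 sites) and Adarb2 at 69.1%, against 54.8% in Gad1 and 64.6% in Gad2. The 50 kb step that crosses the right edge of Erbb4 was at 68.2%. The part of window length in the contrast was not tested.

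The difference from the flanks was -23.3 percentage points in Gad1 (95% interval -25.6 to -21.1; Fisher's exact test, adjusted p = 4.92e-107). It was -11.0 points in Gad2 (-13.5 to -8.61; Fisher's exact test, adjusted p = 4.83e-20). Nxph1 and Adarb2 were also lower than their flanks, by -1.49 and -1.53 points (Fisher's exact test, adjusted p = 0.00197 and 0.000756), and Erbb4 did not differ beyond counting error (-0.229 points, -0.783 to 0.326, Fisher's exact test, adjusted p = 0.479). By the same test 30.4% of autosomal bins were lower than their own flanks and 69.5% differed either way, so calls like those of Nxph1 and Adarb2 were common. By size, 0.349% of bins lay further below their flanks than Gad1 did, and 3.44% further than Gad2, against 31.9% for Nxph1 and 31.6% for Adarb2. At sites of at least 30 reads, only 6 and 8 CpG sites remained in Gad1 and Gad2, the Gad1 difference was -11.1 points and that of Gad2 was 0.680 points and did not pass. The Nxph1 call was lost against the lower flank alone and the Adarb2 call against the higher flank alone or at sites of at least 30 reads.

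**Figure D1:**
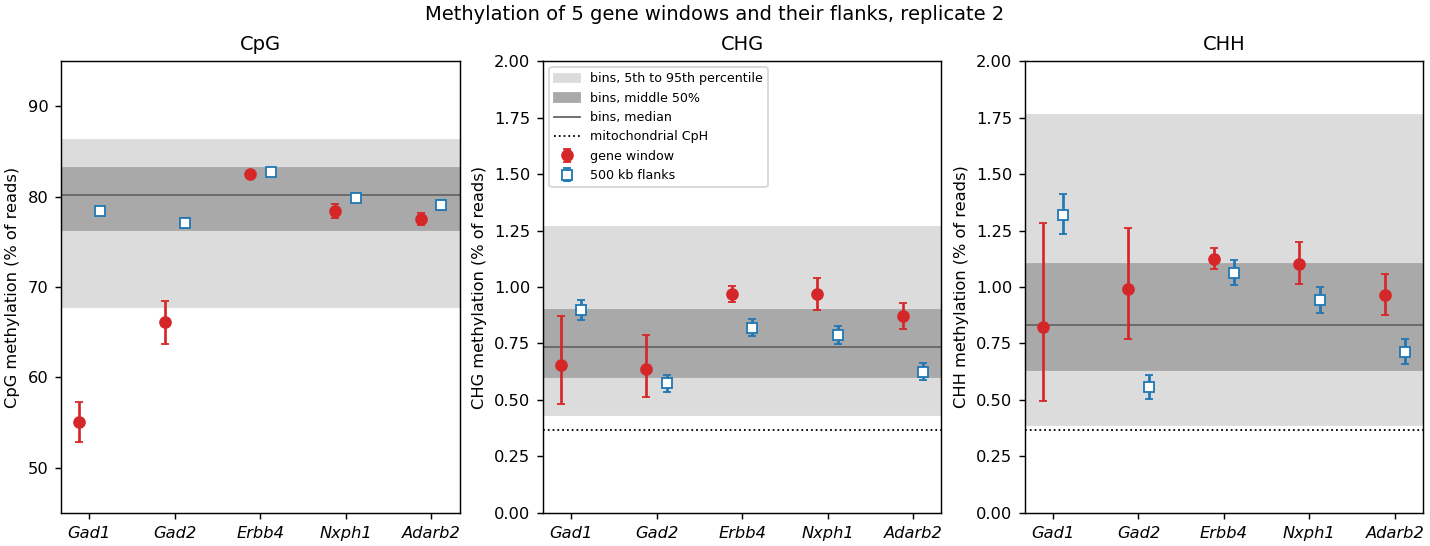
Methylation (percent of reads, y axis) of the 5 gene windows (filled circles) and their 500 kb flanks (open squares) in replicate 2, by context, with exact 95% intervals. Grey bands give autosomal 100 kb bins and the dotted line the mitochondrial CpH level of 0.368%. Gad1 (55.1%) and Gad2 (66.1%) lie below the CpG band, and Erbb4, Nxph1 and Adarb2 lie above their flanks in CHG.

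The low level of both decarboxylase genes lay in the unmethylated runs and also at sites outside them, some of these near the runs. In Gad1 25 of 83 CpG sites (30.1%) were at or below 20%, in Gad2 11 of 63 (17.5%), and on the autosomes 5.40% of sites. The share was 2.57% in Erbb4, 4.75% in Nxph1 and 5.10% in Adarb2. Sites of at least 80% made up 41.0% in Gad1 and 47.6% in Gad2, against 71.0% in Erbb4 and 66.6% on the autosomes. With such runs left out of windows, flanks and bins, Gad1 was at 72.9% against 79.2% in the flanks and Gad2 at 73.2% against 79.1%. These differences of -6.34 and -5.89 points still passed (Fisher's exact test, adjusted p = 7.61e-08 and 1.68e-06). With all CpG sites counted, 30.4% of autosomal bins were lower than their own flanks by the same test. This share was not computed with the runs left out, so the differences outside the runs are not shown to be unusual. In steps of 10 kb, Gad1 was at 49.2%, 5.69%, 63.3%, 76.3% and 78.2% over its first 50 kb, so the lowest step was the second. Gad2 was at 33.8% in its first 10 kb and at 84.2% and 83.0% in the next steps, and between 61.7% and 76.5% over the further 10 kb steps. With the Nxph1 window cut into 3 equal parts, the part at the start of the gene was at 70.1% (68.5% to 71.6%), below 84.3% and 80.4% in the others.

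**Figure D2:**
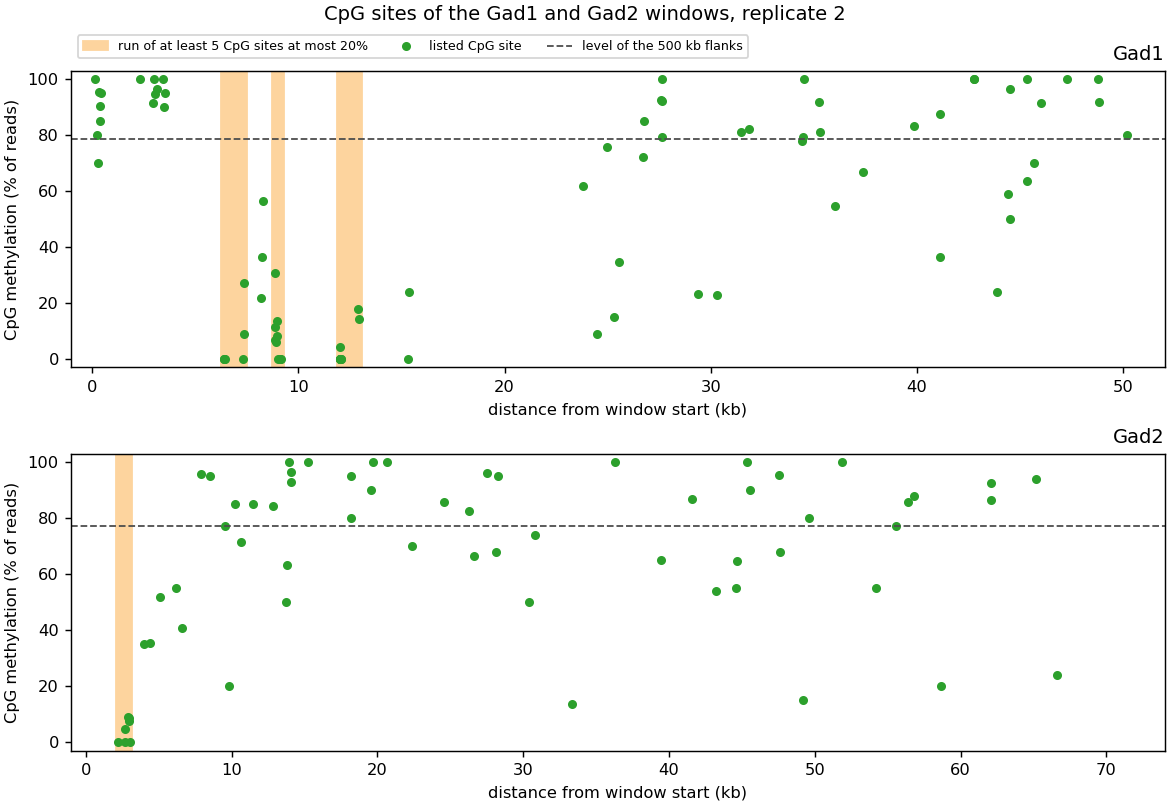
Level of each listed CpG site (y axis, percent of reads) by distance from the window start (x axis, kb) in Gad1 and Gad2, both transcribed to the right. Shaded stretches are runs of at least 5 consecutive sites of at most 20%, and the dashed line is the level of the 500 kb flanks. The 3 runs of Gad1 span 6.38 to 12.9 kb and the run of Gad2 spans 2.19 to 2.99 kb.

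CHG methylation was higher than the flanks in the 3 long genes and not in the decarboxylase genes. Erbb4 was at 0.969% (0.933% to 1.01%, 11213 sites), Nxph1 at 0.968% (0.900% to 1.04%, 3167 sites), Adarb2 at 0.871% (0.815% to 0.929%, 4411 sites), Gad1 at 0.655% (0.480% to 0.873%, 295 sites) and Gad2 at 0.638% (0.511% to 0.786%, 576 sites). In that order the intervals of neighbours overlap at each step. The interval of Gad2 lies below those of the 3 long genes, that of Gad1 below those of Erbb4 and Nxph1, and that of Adarb2 just below that of Erbb4. Among 23849 autosomal bins, with a median of 0.734%, 81.5% were below Erbb4, 81.4% below Nxph1, 71.6% below Adarb2, 35.0% below Gad1 and 31.6% below Gad2. The mitochondrial CpH level, a measure of failed conversion, was 0.368%, and all 5 windows lay above it.

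Against its flanks Adarb2 was higher by 0.247 points (0.181 to 0.315, 0.871% against 0.624%; Fisher's exact test, adjusted p = 6.84e-12). Nxph1 was higher by 0.180 points (0.102 to 0.261; Fisher's exact test, adjusted p = 5.02e-05) and Erbb4 by 0.150 points (0.0978 to 0.202; Fisher's exact test, adjusted p = 4.67e-07). By the same test 16.6% of autosomal bins were higher than their flanks. Of the bins' own differences, 90.0% lay below that of Adarb2, 84.8% below that of Nxph1 and 81.6% below that of Erbb4. A bin had a median of 780 CHG sites, against 3167 to 11213 in these windows and 295 and 576 in Gad1 and Gad2. A given difference passes more easily in a larger window, so the shares of bins are not a like-for-like measure. Each of the 3 calls also held against either flank alone. Gad2 differed by 0.0643 points (-0.0618 to 0.217; Fisher's exact test, adjusted p = 0.491) and Gad1 by -0.242 points (-0.411 to -0.0200; Fisher's exact test, adjusted p = 0.0798). At sites of at least 30 reads Erbb4 (0.141 points) and Adarb2 (0.0443 points) did not pass, and with flanks of 200 kb Nxph1 (0.0959 points) did not. Listed CHG sites were denser in the windows of Erbb4 (10.5 against 9.15 per kb) and Nxph1 (10.5 against 7.98 per kb) than in their flanks, and the part of this in the result was not tested.

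The flanks of Gad1 were unlike each other. The 500 kb on its lower side, where Myo3b, Sp5 and Erich2 lie in RefSeq, was at 1.16% for CHG and 1.80% for CHH. On its higher side, with Gorasp2, Tlk1, Mettl8 and Dcaf17, it was at 0.670% and 0.841%. Gad1, at 0.655% and 0.823%, was below the lower flank alone (Fisher's exact test, adjusted p = 0.000288 for CHG and 0.00100 for CHH) and differed from the higher flank by -0.0146 and -0.0181 points (Fisher's exact test, adjusted p = 0.970 and 1.0). In the comparison with both flanks, 19.5% of autosomal bins were called lower for CHG and 20.2% for CHH.

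CHH methylation was above the flanks in Nxph1, Adarb2 and Gad2, and in Gad2 1 cytosine held 21 of the 66 methylated reads. Erbb4 was at 1.13% (1.08% to 1.17%, 6245 sites), Nxph1 at 1.10% (1.01% to 1.20%, 1462 sites), Gad2 at 0.992% (0.768% to 1.26%, 198 sites), Adarb2 at 0.964% (0.877% to 1.06%, 1392 sites) and Gad1 at 0.823% (0.496% to 1.28%, 66 sites). In this order the intervals of neighbours overlap throughout. Of 22865 autosomal bins, with a median of 0.833%, 76.5% were below Erbb4, 75.0% below Nxph1, 66.8% below Gad2, 64.3% below Adarb2 and 48.7% below Gad1.

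The difference from the flanks was 0.251 points in Adarb2 (0.148 to 0.359; Fisher's exact test, adjusted p = 1.42e-05), 0.162 points in Nxph1 (0.0552 to 0.274; Fisher's exact test, adjusted p = 0.0117) and 0.434 points in Gad2 (0.216 to 0.707; Fisher's exact test, adjusted p = 0.000291). By the same test 16.8% of bins were higher than their flanks, but a bin had a median of only 241 CHH sites, fewer than Adarb2 or Nxph1. The Gad2 value drew much on 1 cytosine, at 22489674 of chromosome 2, which had 21 of the 66 methylated CHH reads of the window. Without it the Gad2 level was 0.680% and the difference 0.122 points (Fisher's exact test, adjusted p = 0.321). Erbb4 did not pass (0.0619 points, -0.0101 to 0.133; Fisher's exact test, adjusted p = 0.178), and nor did Gad1 (-0.497 points, -0.807 to -0.0302; Fisher's exact test, adjusted p = 0.0907). Without its own highest site, with 8 of 19 methylated reads, Gad1 was at 0.486% (Fisher's exact test against the flanks, adjusted p = 0.000850). The flanks kept their highest sites in both genes, so this step could only lower the window. No difference, or lack of one, is read from it in Gad1 or Gad2. The Nxph1 call was lost with flanks of 200 kb (0.0149 points), and Erbb4 passed against flanks of 1 Mb (0.134 points) or the lower flank alone (0.146 points). At least 40 reads left 9 to 91 sites in the windows other than Erbb4, and all 4 differences changed sign.

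CpH methylation in the windows followed the bases after the cytosine, read here from which neighbouring positions were themselves listed as cytosines. CHH sites with a listed cytosine 2 bases on and none next to them were the most methylated class in all 5 windows. They stood at 3.02% (2.84% to 3.22%) in Erbb4, 2.58% (2.25% to 2.94%) in Nxph1, 2.43% (1.71% to 3.35%) in Gad2, 2.29% (1.97% to 2.65%) in Adarb2 and 3.11% (1.56% to 5.49%, 10 sites) in Gad1. In Gad1 1 cytosine, at 70435543, had 8 of the 11 methylated reads of the class, and without it the level was 0.965%. In Gad2 the cytosine at 22489674 had 21 of 36, and without it the level was 1.04%. The autosomal level of this class was 2.06%. The intervals of Erbb4 and Nxph1 lay above it, and those of the other members included it.

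CHH sites followed directly by a listed cytosine were at the failed-conversion level. They were at 0.359% (0.302% to 0.424%) in Erbb4, 0.427% in Nxph1, 0.295% in Adarb2 and 0.267% in Gad2, with 0 of 552 reads in Gad1, which allows up to 0.666%. On the autosomes this class was at 0.355%. None of the 5 windows differed from its flanks in it (Fisher's exact test, adjusted p = 0.580 to 1.0; 0.739 in Nxph1, 0.980 in Adarb2). In the class with a cytosine 2 bases on, Adarb2 was above its flanks (2.29% against 1.57%; Fisher's exact test, adjusted p = 0.00106) and so was Gad2 (2.43% against 1.28%; Fisher's exact test, adjusted p = 0.00439). Over all CHH sites 16.8% of autosomal bins were higher than their flanks, and this share was not computed within the class. Without its highest site, and with the flanks left whole, the Gad2 difference in this class was -0.239 points and the call was lost (Fisher's exact test, adjusted p = 0.658). Nxph1 was at 2.58% against 2.10% (Fisher's exact test, adjusted p = 0.0514) and Erbb4 at 3.02% against 2.74% (Fisher's exact test, adjusted p = 0.133). CHH sites with no listed cytosine at the next 2 bases lay between, at 0.910% in Erbb4, 0.919% in Nxph1, 0.847% in Adarb2, 0.707% in Gad2 and 0.571% in Gad1.

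CHG sites split in a similar way over the 5 windows together. Those followed by a listed cytosine, which is then the cytosine of a CpG, made up 2.47% of CHG sites and were at 0.384% (0.281% to 0.514%) over the 5 windows, and the remaining CHG sites were at 0.947% (0.920% to 0.975%). On the autosomes these classes stood at 0.432% and 0.795%. The split was not seen in Nxph1, where CHG sites before a listed cytosine were at 0.804% (0.469% to 1.28%, 86 sites) and the interval included the 0.973% of the remaining CHG sites. In Gad1 (0 of 216 reads, up to 1.69%) and Gad2 (0 of 354 reads, up to 1.04%) the intervals were too wide to show it. They included the 0.676% and 0.655% of the remaining CHG sites there. Without the sites before a CpG, Erbb4 (0.984%), Nxph1 and Adarb2 (0.887%) were still above their flanks (Fisher's exact test, adjusted p = 1.58e-06, 0.000120 and 3.55e-13). Over all CHG sites 16.6% of autosomal bins were higher than their flanks, and this share was not computed without the sites before a CpG.

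**Figure D3:**
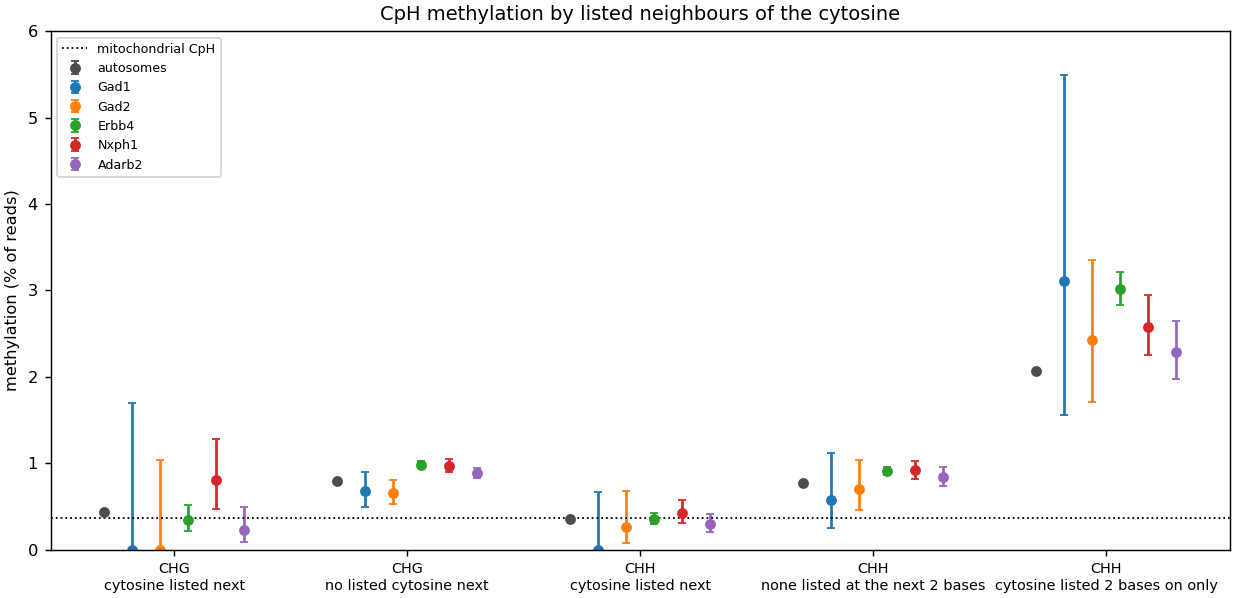
CpH methylation (y axis, percent of reads) of the autosomes and the 5 windows for each class of listed neighbours (x axis), with exact 95% intervals. CHH sites with a cytosine 2 bases on only stand highest in every window, from 2.29% to 3.11% (the Gad1 value is 0.965% and the Gad2 value 1.04% without 1 site each), and CHH sites with a cytosine next to them lie around the dotted mitochondrial level of 0.368%.

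The long genes were uneven along their length. In the 10 bins of 100 kb inside Erbb4 the CHG level ran from 0.612% to 1.22%, with a median of 0.942%. The SD over these bins was 0.219 points, against 0.0613 points from counting error alone. The lowest bin was 68500001 to 68600000 (0.612%, 0.520% to 0.717%). The highest was 68100001 to 68200000 (1.22%, 1.09% to 1.36%), near the end of the gene. Bins at the start of the gene, from 68800001 to 69100000, were also high, at 1.15%, 1.16% and 1.14%. The bin next to the highest one, 68200001 to 68300000, was the second lowest (0.688%, 0.591% to 0.795%), and the bins between 68600001 and 68800000 were at 0.810% and 0.770%. Low bins thus lay both in the middle of Erbb4 and near its end. In 3 equal parts from the start of the gene, CHG was at 1.16%, 0.750% and 0.974% and CHH followed the same order at 1.30%, 0.880% and 1.18%. CpG did not, at 79.9%, 83.7% and 84.1%.

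In Erbb4 8 of 10 bins were above the autosomal CHG median and 6 above the upper quartile, where 50% and 25% of all bins lie. The 5 bins inside Adarb2 had CHG levels from 0.539% to 1.06%, and 4 were above the median. The lowest was 8400001 to 8500000 (0.440% to 0.653%) and the highest 8300001 to 8400000 (0.917% to 1.23%), which lie side by side. For CHH all 5 Adarb2 bins were above the autosomal median, from 0.879% to 1.24%, although the bin lowest in CHG was at 1.01%. The 3 bins of Nxph1 were at 0.983%, 1.07% and 0.868% for CHG, all above the median, and at 1.13%, 1.39% and 0.903% for CHH. Bins of 1 gene share their reads' library and are not replicates.

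**Figure D4:**
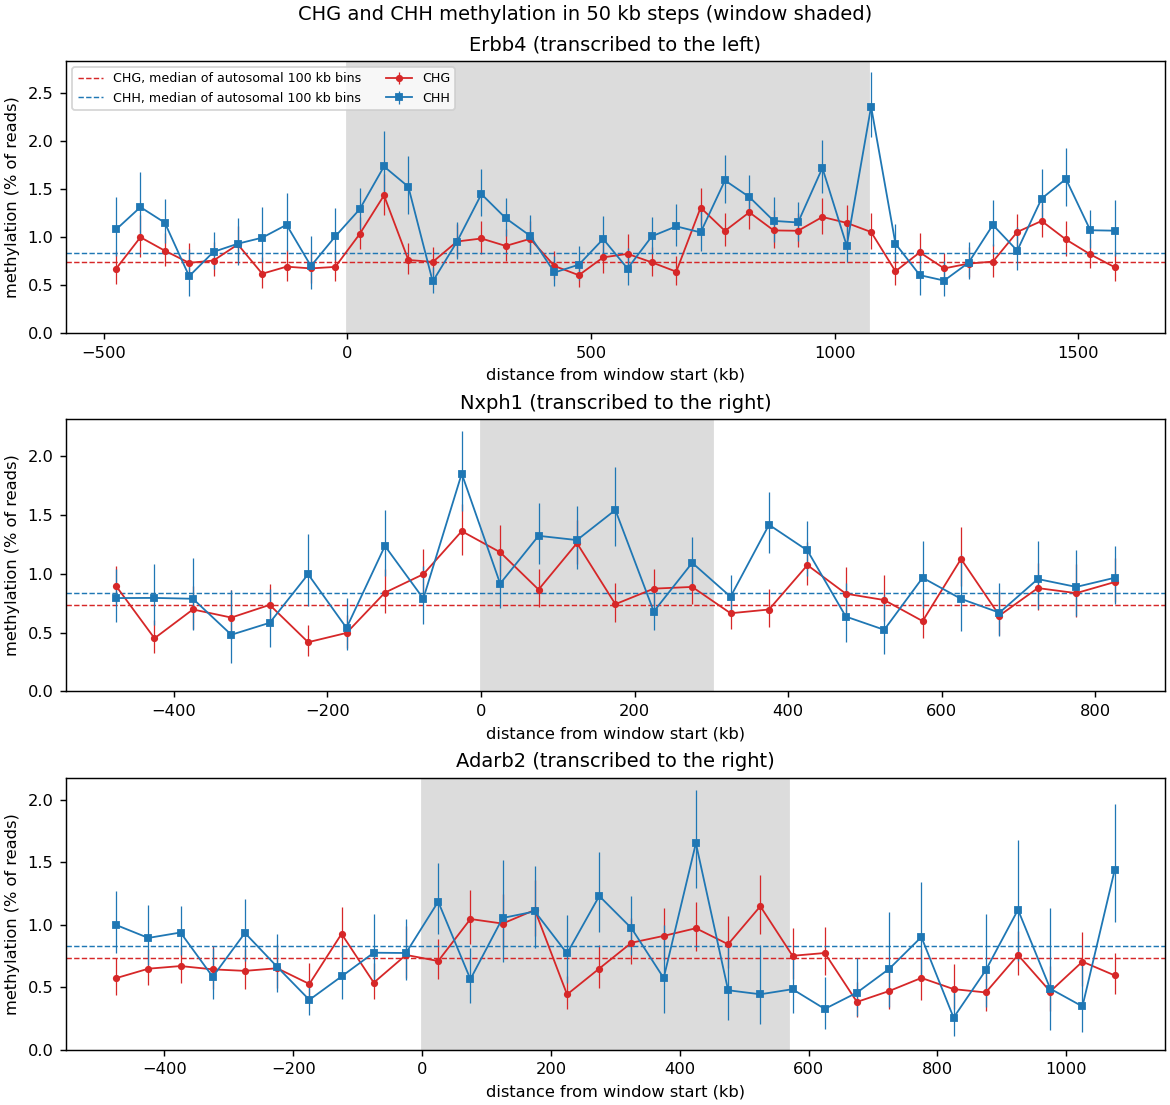
CHG (circles) and CHH (squares) methylation (y axis, percent of reads) in 50 kb steps by distance from the window start (x axis, kb) with exact 95% intervals. Windows are shaded, the last step of a window can reach past its edge, and dashed lines are the medians of autosomal 100 kb bins, 0.734% and 0.833%. In Erbb4 the levels move up and down along the window, with low CHH steps at 150 kb (0.535%) as well as at 400 kb (0.629%).

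Single CpH cytosines were then called methylated against the mitochondrial rate. In the 5 windows 397 of 19662 CHG sites (2.02%, 1.83% to 2.23%) and 331 of 9363 CHH sites (3.54%, 3.17% to 3.93%) were called, against 1.46% of CHG and 2.75% of CHH sites on the autosomes. By gene, the CHG share was 2.13% in Erbb4 (239 sites), 2.05% in Nxph1 (65 sites), 1.86% in Adarb2 (82 sites), 1.36% in Gad1 (4 sites) and 1.22% in Gad2 (7 sites). The intervals of the 3 long genes lay above the autosomal share, and those of Gad1 and Gad2, with few calls, included it. The intervals cover counting error only. The spread of the share called over autosomal bins was not computed, so these shares are not shown to be unusual. For CHH the share was 3.55% in Erbb4 (222 sites), 4.04% in Nxph1 (59 sites), 3.09% in Adarb2 (43 sites), 3.03% in Gad1 (2 sites) and 2.53% in Gad2 (5 sites), and the intervals of Erbb4 and Nxph1 lay above the autosomal share. In the class with a cytosine 2 bases on, 11.3% of 1475 sites were called (9.75% to 13.1%), against 7.70% on the autosomes. Methylation at called sites was partial, with median levels of 14.0% to 18.2% for CHG and 12.1% to 17.1% for CHH by gene. No call had fewer than 3 methylated reads, so low levels at single sites were not detectable at this depth.

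The highest called sites were methylated in a large part of the reads. In Erbb4 they were a CHG cytosine at 68180141 (24 of 37 reads, 64.9%, 47.5% to 79.8%) and a CHH cytosine at 68227620 (21 of 32 reads, 65.6%, 46.8% to 81.4%). In Adarb2 a CHH cytosine at 8355335 had 18 of 31 methylated reads (58.1%) and a CHG cytosine at 8564451 had 9 of 22 (40.9%). In Gad2 the CHH cytosine at 22489674, 12.7 kb into the window, had 21 of 36 reads (58.3%), and a CHG cytosine at 22549938, at the far edge, 8 of 21 (38.1%). In Nxph1 the highest were a CHH cytosine at 9177380 (13 of 31 reads, 41.9%) and a CHG cytosine at 8928097 (9 of 30 reads, 30%). Gad1 had none this high. Its top sites were a CHH cytosine at 70435543 (8 of 43 reads, 18.6%) and a CHG cytosine at 70395775 (4 of 23 reads, 17.4%). All 5 CHG sites had no listed cytosine next to them. Of the 5 CHH sites, those of Gad1, Gad2 and Nxph1 had a listed cytosine 2 bases on, and those of Erbb4 and Adarb2 had none listed at the next 2 bases. These sites were picked as the highest of many, so their levels are a description.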

How the data were processed

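The submitters' processing notes name Bismark 0.7.5 and the mm9 build. Per the labels' protocols, 3 µg of DNA with 0.5% unmethylated lambda DNA was sheared to about 300 bp. For each listed cytosine the authors deposited counts (methylated reads, unmethylated reads and their sum) and the percent methylated, on 1 strand. The lowest depth listed was 20 reads, or 30 for CHH of replicate 2. Steps between reads and counts, such as duplicate removal, were not stated. Counts were used, and the deposited percent was recovered from them. Replicate 2 listed 2881459 CpG, 18322704 CHG and 6231179 CHH sites.

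Sites of at most 100 reads were kept, which removed none in the windows. Levels are methylated over all reads, with Clopper-Pearson intervals, and Newcombe intervals for differences, both for counting error alone, since PCR copies could not be recognised. Each window, and each autosomal 100 kb bin with at least 50 sites, was tested against its own 500 kb flanks with Fisher's exact test (two-sided) and Benjamini-Hochberg adjustment at 0.05 over all bins and windows of a context. Such a p compares regions of 1 library, not conditions or animals. Windows and bins differ in length and number of sites, so shares of bins are only a rough measure for a window. Sites were called by a one-sided exact binomial test against the mitochondrial CpH rate, adjusted at 0.01 over all nuclear sites of the context. A neighbour counts as a cytosine where any table of replicate 2 lists it, so unlisted cytosines blur the classes. Low-CpG runs allow gaps of 2 kb. Named are the 5 genes, the highest called CHG and CHH site of each window, the highest and lowest 100 kb bins of windows over 200 kb and every run. The 20 further genes planned needed an mm9 annotation and were not analysed here. The tests were checked on simulated data. The genes, windows and lists were chosen with earlier results of these data known. Python 3.11.15, scipy 1.17.1 and numpy 2.4.6 were used.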

Additional observations from a re-analysis of the deposited data

Results flagged for a closer look

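Replicate 1, which entered no comparison above, listed 98 cytosines of at most 100 reads in the windows, none of them in Gad1 or Gad2. Its methylated reads exceeded the 3 reads that a count of 0 allows in 3 cases. In Erbb4 the CpG level was 90.5% (80.4% to 96.4%, 3 sites with 63 reads) and the CHH level 0.652% (0.263% to 1.34%, 51 sites with 1073 reads). In Adarb2 the CpG level was 76.4% (63.0% to 86.8%, 2 sites with 55 reads). The intervals include the levels of replicate 2 for Adarb2 CpG (77.6%) and Erbb4 CHH (1.13%) and Erbb4 CpG (82.5%).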

How the results depend on the processing

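All values are window minus flanks in percentage points, with Fisher's exact test unless said otherwise. The cause of the changes was not tested, except that a depth minimum leaves fewer sites. At least 30 reads gave 0.680 (Gad2) and 1.73 (Adarb2) for CpG, which changed sign, and 0.141 (Erbb4) and 0.0443 (Adarb2) for CHG, no longer passing. At least 40 reads gave 3.56 (Erbb4) and 2.90 (Adarb2, 2 sites) for CpG and -0.210 (Erbb4) and -0.227 (Adarb2) for CHG, all of changed sign, and -2.01 (Nxph1 CpG) and 0.0942 (Nxph1 CHG), not passing. For CHH it gave 1.89 (Gad1, 9 sites, now passing as higher by Fisher's exact test, adjusted p = 0.0114), -0.320 (Gad2), -0.237 (Nxph1) and -0.141 (Adarb2), of changed sign. Flanks of 200 kb gave -0.409 (Gad1 CHG) and -0.762 (Gad1 CHH), now passing, -0.0498 (Gad2 CHG, changed sign), and 0.0959 (Nxph1 CHG) and 0.0149 (Nxph1 CHH), not passing. Flanks of 1 Mb gave 0.134 for Erbb4 CHH, now passing. The lower flank alone gave -0.505 (Gad1 CHG), -0.978 (Gad1 CHH) and 0.146 (Erbb4 CHH), now passing, and -0.617 (Nxph1 CpG), not passing. The higher flank alone gave -0.121 (Adarb2 CpG), not passing, and -0.00209 (Erbb4 CHH), of changed sign.

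By class, CHG before a listed CpG gave -0.341 (Gad2) and -0.459 (Adarb2), of changed sign, and 0.141 (Erbb4) and 0.377 (Nxph1), not passing. CHH with a cytosine 2 bases on gave 0.477 in Nxph1, not passing. CHH with none listed gave 0.212 (Gad2) and 0.0733 (Nxph1), not passing. CHH before a cytosine gave -0.0107 (Gad2) and -0.0615 (Erbb4), of changed sign, and 0.0681 (Nxph1) and 0.0196 (Adarb2), not passing. In alternatives chosen after seeing the data, leaving out the highest site of the window and none of the flanks could only lower the difference. It gave -0.297 (Gad1 CHG) and -0.835 (Gad1 CHH), now passing, and 0.122 (Gad2 CHH), not passing. The same within CHH sites with a cytosine 2 bases on gave -0.239 (Gad2, changed sign) and 0.330 (Nxph1, not passing). Leaving out low-CpG runs gave 0.271 for Erbb4 CpG, of changed sign. Without replicate 2, replicate 1 in its place had no test, and gave -2.66 (Erbb4 CpG), -0.437 (Erbb4 CHG), -0.840 (Erbb4 CHH), 0.317 (Nxph1 CHH, 6 sites), -0.390 (Adarb2 CHG) and -0.538 (Adarb2 CHH), of which the CHG and CHH values of Erbb4 and Adarb2 changed sign. No upper depth limit changed no call or direction, and means of site levels, which had no test, changed no direction. Of all differences tested under an alternative, 30 of 38 for CpG, 36 of 50 for CHG and 37 of 58 for CHH kept direction and side of the threshold. The CHH count includes the minimum of 30 reads, which removed no listed CHH site and so could not change a result. A background rate of 1% called 178 CHG sites (0.905%, autosomes 0.673%) and 143 CHH sites (1.53%, autosomes 1.16%), and at least 30 reads 53 CHG sites (2.18%, autosomes 1.93%). Runs of at least 3 sites numbered 11, of which those added in Erbb4 and Adarb2 lay far from the 5′ edge. Gad1 CpG stood above 1.01% of 50 kb bins and 0.0834% of 500 kb bins, and Gad2 CpG above 5.30% and 0.834%. No paired analysis was possible because the 2 libraries form a single group.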
